A study of Mus musculus with 28 samples.

Results

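The 42 collagen genes measured on these arrays are described here, out of 18193 genes with a single-symbol probe set. They are the genes whose symbol is Col, a number, the letter a and a number. Where a gene had several probe sets, the one with the largest SD over the 28 arrays stood for it, which was the case for 27 of the 42 genes. By class, 11 encode chains of fibrillar collagens, 6 encode the chains of type IV collagen of basement membranes, and 25 belong to other types. Of 44 collagen symbols listed, Col6a6 and Col28a1 were not analysed here.

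Total RNA of 2 mouse fibroblast lines was hybridised to Affymetrix arrays. One line is labelled NIH3T3 K-ras, and the other is NIH3T3, an immortalised line of mouse embryo fibroblasts. How the first line was made and its number of clones are, in the sources used here, not given. The K-ras groups were cells grown for 24, 48 and 72 h in 1 mM glucose, and cells at 0 h, the time of the medium change, and after 24, 48 and 72 h in 25 mM glucose. The NIH3T3 groups were the same 7, which gives 14 groups of 2 arrays each, labelled biological replicates 1 and 2. All groups had newborn calf serum and the same concentration of glutamine in the medium. Nothing says that the replicates came from separate experiments, so p-values measure the spread between these arrays.

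Collagens are trimers of alpha chains wound into a helix that depends on glycine at regular steps and on hydroxylated prolines. Fibroblasts are the main makers of fibrillar collagen in connective tissue: type I and type III form the bulk of the fibrils, and types V and XI are built into them and set their assembly. Type IV collagen forms the sheet of basement membranes, and type VI forms beaded microfilaments around cells. Transformed fibroblasts are known, as background, for making less fibrillar collagen than their parent lines.

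A deposited value is the log2 ratio of a probe set to its own median over the 28 arrays, so 0 is that median and 1 is a doubling of signal. How strongly a gene is expressed can no longer be read from such a ratio, so levels cannot be set against each other between genes, and no gene can be called absent. All values below are such log2 ratios unless they are called log2 fold changes, which are differences between group means.

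Several arrays did not carry the profile of their label. Il33 and Krt14 separated the arrays into 14 with Il33 between 0.98 and 3.42 and Krt14 between -4.58 and -3.90, which held most arrays labelled K-ras, and 14 with Il33 between -6.52 and -5.52 and Krt14 between 0.95 and 2.49, which held most arrays labelled NIH3T3. In each set 3 arrays were labelled as the other line. Labelled K-ras were replicate 1 at 0 h in 25 mM, and replicate 1 at 48 h and at 72 h in 1 mM. Labelled NIH3T3 were both replicates at 24 h and replicate 1 at 48 h, all in 1 mM. No array was moved to another group, and the counts of collagens called are given with all 28 arrays and without these 6. The hybridisation control bioC was below -0.6 on 12 arrays, all labelled NIH3T3. It lay between -0.27 and 2.94 on the 8 K-ras arrays at 25 mM and between -2.35 and -0.81 on the 8 NIH3T3 arrays at 25 mM, so line and bioC level cannot be told apart at 25 mM. K-ras 25 mM 72 h replicate 1 stood apart with the bioC value of 2.94 and an interquartile range over genes of 0.777.

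Promoter windows of 8 collagen genes are shown. Col1a2 and Col3a1 were fixed by name, and Col11a1 and Col27a1 had large line differences, described below. The type IV genes lie back to back. Each window runs from 250 bases before to 50 bases after the start given by the RefSeq promoter table, on build GRCm38.p6, written 5′ to 3′ on the gene's strand. Capitals mark 3 short motifs on either strand: the CCAAT box (CCAAT or ATTGG), the GC box (GGGCGG or CCGCCC) and the TATA box (TATAAA or TTTATA). That start is the outer end of the annotated gene for 3 of the 8 and lies inside it for 5, by 19 to 63 bases for 4 of them and by 1403 bases for Col27a1, whose window is thus within the gene. The fibrillar genes come first.
Col1a2, chr6:4505368-4505667, plus strand: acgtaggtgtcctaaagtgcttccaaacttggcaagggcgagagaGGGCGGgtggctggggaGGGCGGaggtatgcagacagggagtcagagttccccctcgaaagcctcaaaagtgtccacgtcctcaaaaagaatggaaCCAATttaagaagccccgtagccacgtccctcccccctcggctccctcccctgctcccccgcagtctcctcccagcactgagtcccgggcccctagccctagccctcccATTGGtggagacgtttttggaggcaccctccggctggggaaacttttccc
Col3a1, chr1:45311288-45311587, plus strand: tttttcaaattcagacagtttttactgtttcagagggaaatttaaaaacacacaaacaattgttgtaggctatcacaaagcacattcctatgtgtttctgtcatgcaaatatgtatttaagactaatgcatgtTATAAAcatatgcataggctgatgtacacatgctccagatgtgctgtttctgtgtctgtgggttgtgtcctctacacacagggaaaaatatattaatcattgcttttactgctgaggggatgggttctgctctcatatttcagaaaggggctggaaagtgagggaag
Col11a1, chr3:114030290-114030589, plus strand: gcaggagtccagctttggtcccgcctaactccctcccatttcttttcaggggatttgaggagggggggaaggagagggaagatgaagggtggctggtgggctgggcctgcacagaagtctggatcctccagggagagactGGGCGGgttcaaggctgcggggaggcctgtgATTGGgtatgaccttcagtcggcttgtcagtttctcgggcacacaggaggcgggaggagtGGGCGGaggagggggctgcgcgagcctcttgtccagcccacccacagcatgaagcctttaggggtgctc
Col27a1, chr4:63215162-63215461, plus strand: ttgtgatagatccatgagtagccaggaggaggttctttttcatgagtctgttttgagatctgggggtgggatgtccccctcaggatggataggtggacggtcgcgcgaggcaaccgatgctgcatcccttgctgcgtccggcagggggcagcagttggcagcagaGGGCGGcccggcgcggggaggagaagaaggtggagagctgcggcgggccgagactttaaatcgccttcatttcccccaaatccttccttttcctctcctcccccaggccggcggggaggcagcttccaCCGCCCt
The type IV genes follow as their head-to-head pairs, Col4a1 with Col4a2 and Col4a5 with Col4a6.
Col4a1, chr8:11312777-11313076, minus strand: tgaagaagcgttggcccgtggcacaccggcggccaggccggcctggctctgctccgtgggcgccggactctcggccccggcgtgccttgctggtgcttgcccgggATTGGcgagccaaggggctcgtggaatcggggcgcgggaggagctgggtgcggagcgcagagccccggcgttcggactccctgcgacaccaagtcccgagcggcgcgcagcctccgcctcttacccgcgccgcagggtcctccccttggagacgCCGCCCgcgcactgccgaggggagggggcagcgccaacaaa
Col4a2, chr8:11312555-11312854, plus strand: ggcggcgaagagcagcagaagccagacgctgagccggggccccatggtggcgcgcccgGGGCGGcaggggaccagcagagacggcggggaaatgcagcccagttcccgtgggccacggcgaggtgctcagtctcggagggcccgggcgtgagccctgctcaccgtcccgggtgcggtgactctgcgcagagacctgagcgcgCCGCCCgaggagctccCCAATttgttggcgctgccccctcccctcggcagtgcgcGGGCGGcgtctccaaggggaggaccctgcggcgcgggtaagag
Col4a5, chrX:141475169-141475468, plus strand: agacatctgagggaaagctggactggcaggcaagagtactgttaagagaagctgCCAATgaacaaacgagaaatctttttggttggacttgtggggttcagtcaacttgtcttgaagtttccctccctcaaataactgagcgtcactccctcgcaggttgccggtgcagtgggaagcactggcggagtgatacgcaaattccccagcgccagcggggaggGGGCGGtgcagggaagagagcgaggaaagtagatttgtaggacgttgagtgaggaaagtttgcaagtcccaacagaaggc
Col4a6, chrX:141474027-141474326, minus strand: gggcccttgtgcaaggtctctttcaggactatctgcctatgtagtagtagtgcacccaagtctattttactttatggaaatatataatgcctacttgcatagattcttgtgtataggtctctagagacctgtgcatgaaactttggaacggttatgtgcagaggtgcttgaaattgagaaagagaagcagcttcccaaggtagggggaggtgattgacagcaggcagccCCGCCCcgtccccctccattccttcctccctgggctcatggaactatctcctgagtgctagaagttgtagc

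The Col4a1 and Col4a2 starts lie 21 bases apart on opposite strands of chromosome 8, and their windows share 78 bases. Col4a5 and Col4a6 start 1343 bases apart on opposite strands of the X chromosome. The Col1a2 window held CCAAT letters at -109 and 0 and GC boxes at -205 and -188, counted from that start. Of these 8 windows, the Col3a1 window alone held TATA letters, at -117, and it held neither of the other motifs. Of the 33 collagen genes with a window in the table, 13 held CCAAT letters, against 37.4% of all 32851 windows. GC box letters were in 21 of the 33, against 35.7% of all windows, and TATA letters were in 5 of the 33, against 13.6%. The AP-1 motif TGANTCA was searched as well and was in 1 of the 33, Col6a1, against 7.8% of all windows. A collagen gene was counted if any of its windows held the letters, while the shares are of single windows. Col6a2, Col9a1 and Col18a1 have 2 windows each. These matches describe letters in the windows and were not tested for binding. Col1a1 (chr11:94936224-94953042) and Col5a2 (chr1:45374331-45503282) had no window to print.

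Most collagen genes moved little over the 28 arrays, and a subset moved a great deal. The SD over all arrays was above 0.5 for 18 of 42 collagens, or 42.9%, against 27.3% of all genes. These were 8 of 11 fibrillar genes, 4 of 6 type IV genes and 6 of 25 others. The median SD was 0.322 for the collagens and 0.324 for all genes. The same SD picked each gene's probe set. Several were there to pick from for 27 of 42 collagens, against 9010 of 18193 genes. The shares above 0.5 are thus not like for like and carry no test. Col11a1, a chain of the minor fibrillar type XI, had the highest SD of the 42 genes at 1.90, from -2.77 on K-ras 1 mM 72 h replicate 2 to 3.74 on NIH3T3 25 mM 48 h replicate 1.

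Several genes known from specialised tissues had an SD near or below the median of all genes, while Col27a1, also known from cartilage, had 0.895. Among fibrillar genes, Col2a1 and Col11a2 of cartilage each had an SD of 0.24, and Col24a1 had an SD of 0.13. Col4a3 and Col4a4, whose chains form the type IV network of kidney and lung, had SDs of 0.23 and 0.24. The cartilage genes Col9a1, Col9a2, Col9a3 and Col10a1 had SDs of 0.28, 0.14, 0.34 and 0.21. For these genes of low SD the values do not tell a steady transcript from a signal near background.

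**Figure D1:**
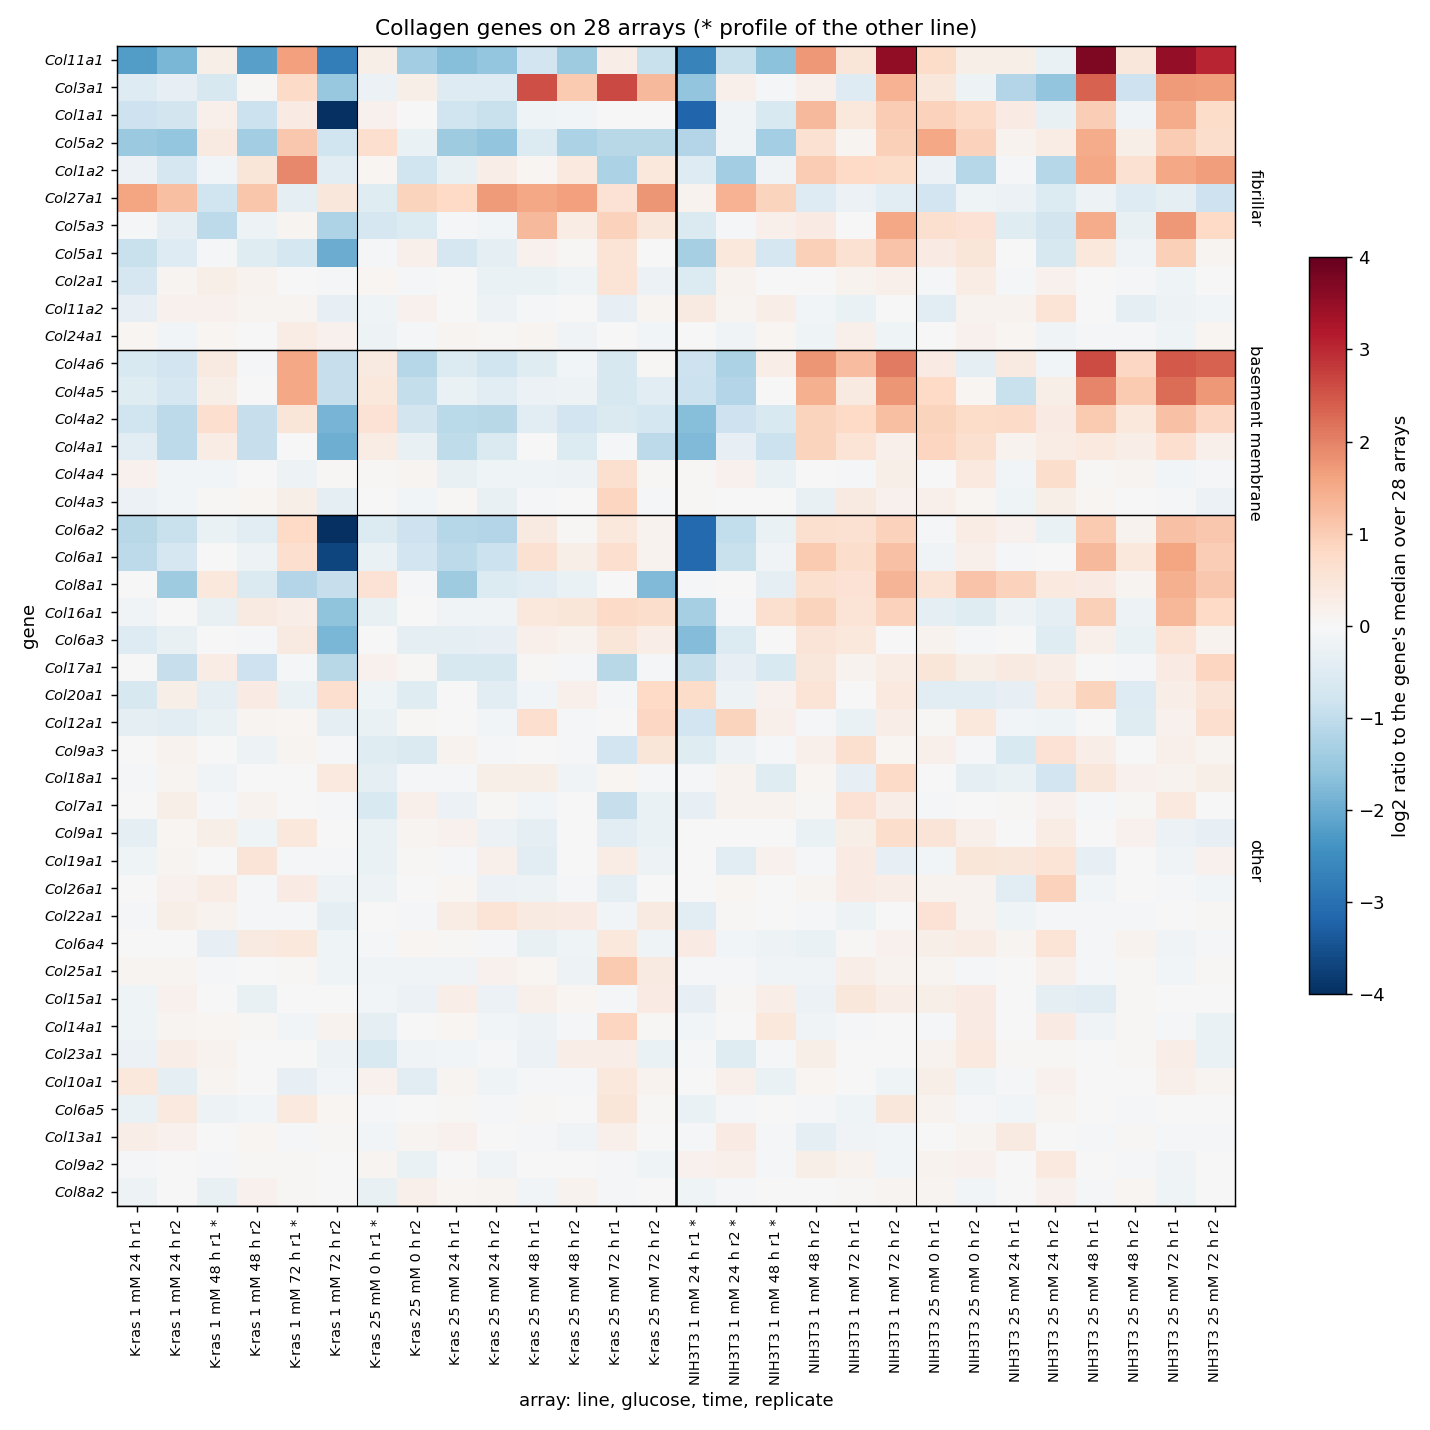
Log2 ratio to the gene's own median (colour, which stops at -4 and 4) for 42 collagen genes (rows, by class) on 28 arrays (columns, by line, glucose, time and replicate; stars mark the 6 arrays with the profile of the other line). An SD above 0.5 was found for 8 of 11 fibrillar and 4 of 6 type IV genes, 19 of the 25 other collagens have an SD of at most 0.5, and K-ras 1 mM 72 h replicate 2 is the lowest of 28 arrays for 12 genes.

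Set against NIH3T3 at 25 mM glucose over 4 times, K-ras cells had less transcript of 6 collagen genes and more of 1. The lower genes were Col5a2 and Col11a1 of the fibrillar class, Col4a2, Col4a5 and Col4a6 of basement membranes, and Col8a1 of the other types. The higher gene was Col27a1, a fibrillar collagen best known from cartilage. These 7 of 42 collagens, or 16.7%, passed the test (limma over 18193 genes, Benjamini-Hochberg adjusted p under 0.05), against 11.3% of all genes. By direction, 5.67% of all genes were called higher and 5.67% lower. The median log2 fold change was -0.146 for the collagens and -0.0385 for all genes. In RNA of whole cultures, fewer cells that make a collagen and less RNA per cell cannot be told apart.

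Col5a2 encodes a chain of type V collagen, which is built into type I fibrils and limits their width. On the 8 K-ras arrays it lay between -1.59 and 0.66 with a median of -1.11, and on the 8 NIH3T3 arrays between 0.13 and 1.55 with a median of 0.82. Its log2 fold change was -1.62 ± 0.34 (SE, adjusted p = 0.0074), and 7 of 8 K-ras arrays were below every NIH3T3 array. The eighth was the 0 h array with the NIH3T3 profile.

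Col11a1 had the largest line difference of the 42 genes. Its values were between -1.71 and 0.28 on the K-ras arrays, with a median of -1.14, and between -0.27 and 3.74 on the NIH3T3 arrays, with a median of 0.61. The groups overlapped, with 6 of 8 K-ras arrays below all NIH3T3 arrays, and the log2 fold change was -2.36 ± 0.70 (SE, adjusted p = 0.037). The call was lost in 13 of 16 fits that each left out 1 array, in which the log2 fold change ran from -2.77 to -1.95.

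Col27a1 went the other way. It lay between -0.49 and 1.76 with a median of 1.22 on the K-ras arrays, and between -0.83 and -0.17 with a median of -0.44 on the NIH3T3 arrays. The log2 fold change was 1.51 ± 0.31 (SE, adjusted p = 0.0070). Of 8 K-ras arrays, 7 were above every NIH3T3 array, and again the 0 h array with the NIH3T3 profile was the exception.

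The fibrils' main chains did not pass the test. Col1a1, the alpha 1 chain of type I collagen, lay at 0.18 and 0.02 at 0 h, -0.80 and -0.89 at 24 h, -0.18 and -0.10 at 48 h, and 0.02 and -0.02 at 72 h in K-ras cells. In NIH3T3 cells it lay at 0.92 and 0.76, 0.34 and -0.31, 0.98 and -0.14, and 1.49 and 0.72 at the same times. The groups overlapped, and the log2 fold change was -0.82 ± 0.52 (SE, adjusted p = 0.36). Col1a2, its partner chain, had a log2 fold change of -0.49 and Col3a1, the single chain of type III collagen, one of 0.51. Col5a1 and Col5a3, the other chains of type V, had -0.21 and -0.26.

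The 4 type IV genes that vary were lower in K-ras cells in the mean, and 3 of them passed the test. Col4a2 encodes a chain of the network found in nearly every basement membrane. It lay between -1.11 and 0.57 with a median of -0.71 on the K-ras arrays, and between 0.33 and 1.17 with a median of 0.80 on the NIH3T3 arrays, with a log2 fold change of -1.38 ± 0.33 (SE, adjusted p = 0.013). Col4a1, its partner chain, lay between -1.04 and 0.29 on the K-ras arrays against 0.14 to 0.85 on the NIH3T3 arrays, and its log2 fold change of -0.84 ± 0.32 missed the threshold (SE, adjusted p = 0.10). For both genes 7 of 8 K-ras arrays were below all NIH3T3 arrays. Col4a5 and Col4a6, whose chains join in the basement membranes of skin and smooth muscle, were lower too. Col4a5 lay between -0.97 and 0.41 with a median of -0.35 on the K-ras arrays, and between -0.90 and 2.22 with a median of 0.92 on the NIH3T3 arrays, with a log2 fold change of -1.24 ± 0.34 (SE, adjusted p = 0.026). Col4a6 lay between -1.15 and 0.35 with a median of -0.52 on the K-ras arrays, against -0.38 to 2.62 with a median of 0.60 on the NIH3T3 arrays, with -1.48 ± 0.35 (SE, adjusted p = 0.013). Both overlapped between lines, with 1 and 5 of 8 K-ras arrays below all NIH3T3 arrays. Col4a5 lost its call in 9 of 16 fits that left out 1 array each.

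Among the other types, Col8a1 alone passed the test. It lies at chr16:57624256-57754737 and encodes a short-chain collagen of blood vessel walls and the cornea. Its values ran from -1.75 to 0.59 with a median of -0.35 in K-ras cells and from 0.12 to 1.41 with a median of 0.74 in NIH3T3 cells, with a log2 fold change of -1.22 ± 0.27 (SE, adjusted p = 0.0089). The type VI genes Col6a1, Col6a2 and Col6a3 had log2 fold changes of -0.70, -0.80 and -0.04, none of which passed.

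Over 4 times the lines did not separate fully for any of the 42 collagens, against 0.231% of all genes fully lower and 0.374% fully higher. Over 24 to 72 h, where all arrays carried the profile of their label, Col5a2, Col4a1, Col4a2 and Col8a1 were fully lower on the 6 K-ras arrays than on the 6 NIH3T3 arrays, and Col27a1 was fully higher. That is 4 and 1 of 42, against 4.24% and 3.7% of all genes.

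When the 6 arrays were left out, 12 collagens were called, 1 higher and 11 lower, against 17.9% of all genes, 8.62% higher and 9.23% lower. The 5 added to the 7 were Col1a1 with a log2 fold change of -0.84 (adjusted p = 0.0066), Col4a1 with -0.91 (adjusted p = 0.0021), Col6a1 with -0.76 (adjusted p = 0.0062), Col6a2 with -0.83 (adjusted p = 0.0013) and Col17a1, a transmembrane collagen of hemidesmosomes, with -0.60 (adjusted p = 0.030). With the bioC split as a term of the fit, 0 collagens were called, and Col11a1 and Col4a5 turned to log2 fold changes of 0.84 and 0.16. Within groups the split varies only in NIH3T3 1 mM at 48 h (bioC 0.32 and -1.21) and 72 h (0.36 and -1.01). The 48 h array with 0.32 has the K-ras profile. The term thus takes up line difference and cannot adjust for bioC, so nothing is drawn from this fit. The other probe sets of the called genes had the same sign as the chosen one, from -2.40 for Col11a1 to 1.19 for Col27a1, apart from Col4a2, which has a single probe set.

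The arrays that went against their labels show the collagens beside the bioC control. The 3 arrays labelled K-ras with the NIH3T3 profile had bioC values of 0.33, 0.31 and 0.10, which lie among the other K-ras arrays, and Col4a2 values of 0.57, 0.67 and 0.50. On the same 3 arrays Col27a1 was at -0.49, -0.78 and -0.41. The 3 arrays labelled NIH3T3 with the K-ras profile had bioC values of -1.82, -2.28 and 0.32, Col4a2 at -1.72, -0.82 and -0.60 and Col27a1 at 0.15, 1.38 and 0.90. Both genes lay on the side of the profile on these 6 arrays. Col8a1 did not on all of them: it was at 0.59, 0.41 and -1.18 on the 3 arrays labelled K-ras and at -0.08, 0.03 and -0.37 on the 3 labelled NIH3T3. This is a description of arrays picked by Il33 and Krt14, with no test.

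**Figure D2:**
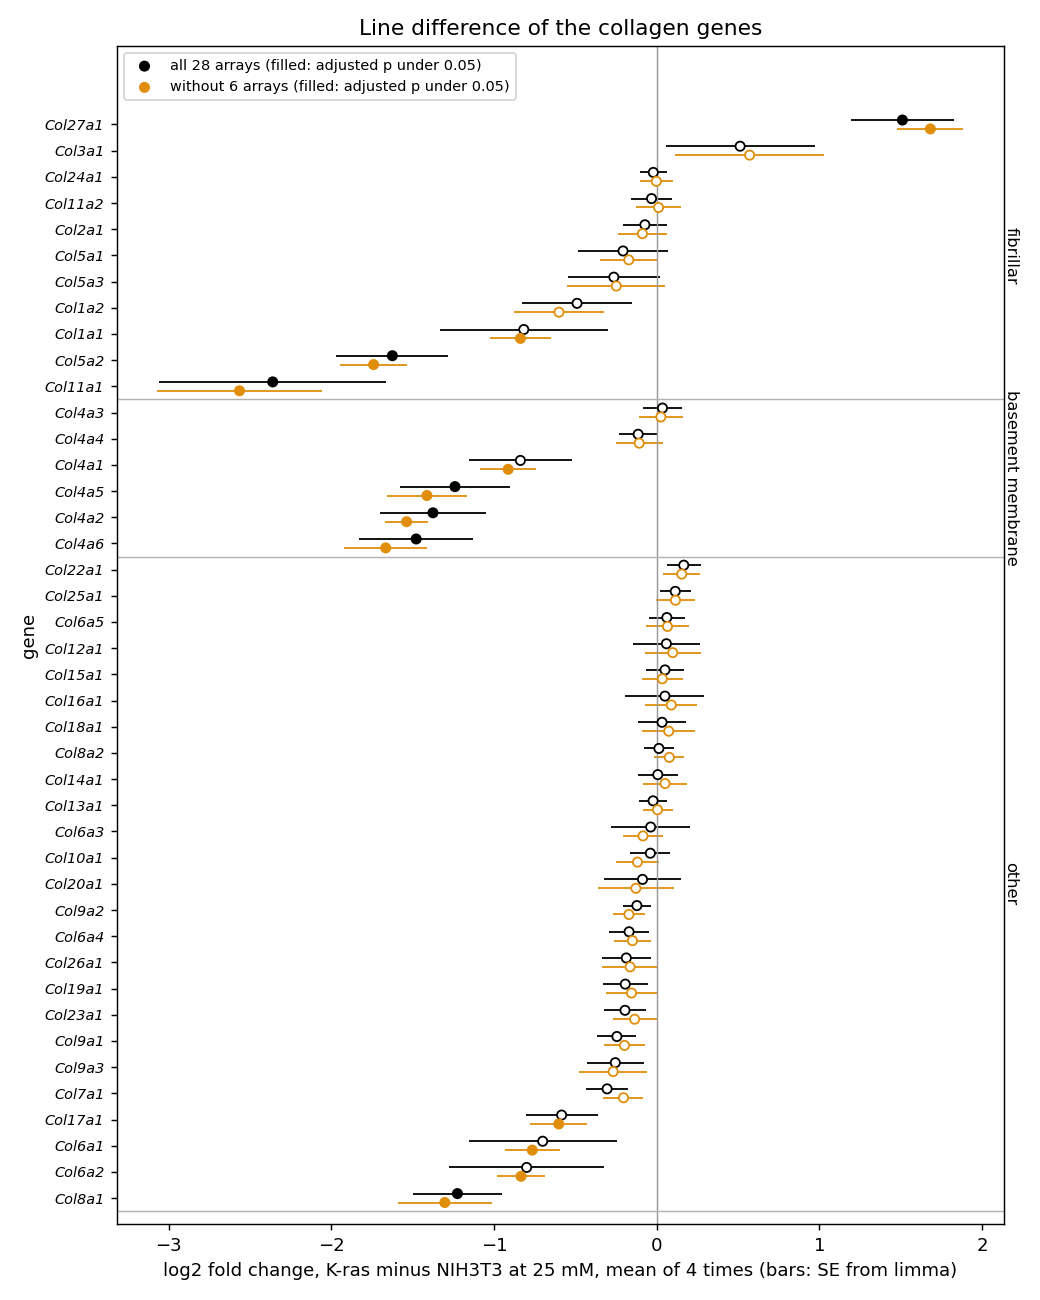
Log2 fold change of K-ras minus NIH3T3 at 25 mM, mean of 4 times (x axis, with SE from limma), for 42 collagen genes by class (y axis), on all 28 arrays (black) and without the 6 arrays with the profile of the other line (orange); filled points passed the adjusted p threshold. Col27a1 lies at 1.51 on 28 arrays, while 6 genes between -2.36 and -1.22 are called lower.

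Marker genes of other cell types were set beside these differences. Of 6 fibroblast markers, Pdgfra was called higher in K-ras cells over 4 times and none lower, and without the 6 arrays Thy1 and Dcn were higher too. The mean of the 6 ran from -1.24 to 1.13 on the K-ras arrays at 25 mM and from -1.43 to 0.80 on the NIH3T3 arrays. Of 6 epithelial markers, Epcam, Cdh1 and Krt14 were called lower, with array means of -0.84 to 0.27 in K-ras cells and 0.22 to 0.74 in NIH3T3 cells. Krt14 and Il33 also set the array profiles, so Krt14 is no separate evidence here. It weighs most in these means, with a log2 fold change of -5.13, against -1.03 for Cdh1 and -0.34 for Epcam. Krt8, also epithelial, had a log2 fold change of 0.59 (adjusted p = 0.054) and was called higher without the 6 arrays (0.65, adjusted p = 0.0088). Among 4 skeletal muscle markers, Des and Acta1 were called lower, with array means of -0.28 to 0.22 in K-ras cells and 0.01 to 1.59 in NIH3T3 cells. The NIH3T3 means were 1.40 and 1.59 at 0 h and between 0.01 and 0.29 from 24 to 72 h. From 0 to 24 h in NIH3T3 cells Acta1 had a log2 fold change of -4.43. At 72 h alone neither gene was called between the lines, with -0.89 for Acta1 and -0.64 for Des. Of all genes, 5.67% were called in each direction. Of 4 measured leukocyte markers, Cd68 was called higher. No endothelial, chondrocyte or osteoblast marker was called, of 5, 5 and 3 measured. The part of these cell markers in the collagen differences was not tested, and since the values are ratios, no marker can be said to be present or absent.

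At 72 h alone, the 7 collagens called over 4 times had the same signs at 25 mM, with wider errors. No collagen passed the adjusted p threshold with all 28 arrays, against 0.726% of all genes. An unadjusted p under 0.05 was found for 13 of 42, against 3929 of 18193 genes. The largest log2 fold changes were -3.58 for Col11a1, -2.70 for Col4a6, -2.52 for Col4a5 and -2.13 for Col8a1, with adjusted p-values of 0.16, 0.071, 0.074 and 0.067. None of the 6 arrays is in these groups, but without them the shared spread was smaller and 9 collagens were called, against 8.89% of all genes, 3.46% higher and 5.43% lower. They were Col27a1, higher, and 8 lower genes: Col11a1, Col4a6, Col4a5, Col8a1, Col1a2, Col5a2, Col4a2 and Col17a1. Leaving out K-ras 25 mM 72 h replicate 2 alone gave 8, which rest on replicate 1, the array that stood apart.

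After 72 h in 1 mM glucose the K-ras arrays lay further apart for Col1a1, Col6a1 and Col6a2 than the NIH3T3 arrays did. No collagen passed with all arrays, against 0.253% of all genes. Of the 42, 9 had an unadjusted p under 0.05, against 2295 of 18193 genes. Col1a1 was at 0.34 and -4.00 on the K-ras arrays and at 0.42 and 1.02 on the NIH3T3 arrays, and Col6a2 at 0.78 and -4.06 against 0.61 and 0.94. The first K-ras array has the NIH3T3 profile and the second is the lowest of 28 for both genes. The log2 fold changes were -2.55 for Col1a1, -2.44 for Col6a1, -2.41 for Col6a2, -2.58 for Col11a1 and -2.23 for Col5a1. Leaving out the 6 arrays leaves 1 K-ras array assumed to vary like the other groups, and 10 collagens were called, all lower, against 8.09% of all genes and 4.66% lower. They were Col1a1, Col5a1, Col11a1, Col4a1, Col4a2, Col4a6, Col6a1, Col6a2, Col6a3 and Col16a1, with log2 fold changes from -4.83 for Col6a2 to -2.05 for Col6a3. Leaving out K-ras 1 mM 72 h replicate 1 alone gave 7. Without the 6 arrays Thy1 (-1.94) and S100a4 (-1.24) of the fibroblast markers were called lower too, and their part was not tested.

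Over time at 25 mM, the NIH3T3 values of several fibrillar and type IV genes were highest at 48 or 72 h. Between 0 and 24 h no collagen passed, against 0.0055% of all genes. An unadjusted p under 0.05 was found for 2 of 42, against 828 of 18193 genes. The largest differences, 24 h minus 0 h, were log2 fold changes of -1.51 for Col3a1, -1.21 for Col5a3, -1.03 for Col5a2 and -0.83 for Col1a1. The fibrillar median was -0.506, against 0.0269 for all genes.

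Between 24 and 72 h, the NIH3T3 cells had a fibrillar median log2 fold change of 0.867 and a type IV median of 0.342, 72 h minus 24 h, against -0.0986 for all genes. With all 28 arrays 0 of 42 collagens passed, against 6.15% of all genes. Of the 42, 8 had an unadjusted p under 0.05, against 4146 of 18193 genes. The adjusted p of several collagens lay just above 0.05. Col3a1 was at 0.47 and -0.21 at 0 h, -1.18 and -1.58 at 24 h, 2.37 and -0.82 at 48 h, and 1.70 and 1.67 at 72 h. Both 72 h arrays lay above both 24 h arrays, the 48 h arrays lay far apart, and the log2 fold change from 24 to 72 h was 3.06 ± 0.91 (SE, adjusted p = 0.056). Non-overlap between times was not counted over all genes, so here and below it only describes these arrays.

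Col1a2 had its higher values at 48 and 72 h. It was at -0.22 and -1.14 at 0 h, -0.08 and -1.13 at 24 h, 1.54 and 0.60 at 48 h, and 1.56 and 1.68 at 72 h, with a log2 fold change from 24 to 72 h of 2.22 ± 0.68 (SE, adjusted p = 0.060). All 4 of its later values lay above all 4 of its earlier ones. Col1a1, its partner in type I collagen, had a log2 fold change of 1.09 (adjusted p = 0.58) and overlapped between early and late times.

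Col11a1 reached the highest ratios of the 42 genes. Its NIH3T3 values were 0.75 and 0.23 at 0 h, 0.24 and -0.27 at 24 h, 3.74 and 0.47 at 48 h, and 3.50 and 3.04 at 72 h. Both 72 h arrays lay above both 24 h arrays. The log2 fold change from 24 to 72 h was 3.29 ± 1.40 (SE, adjusted p = 0.17).

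The X-linked type IV pair had its higher values at the late times. Col4a5 was at 2.22 and 1.72 at 72 h and at -0.90 and 0.24 at 24 h, and Col4a6 at 2.44 and 2.37 at 72 h and 0.36 and -0.10 at 24 h. For both genes the 72 h arrays lay above the 24 h arrays, and on the first 24 h array they were 1.27 apart. Their log2 fold changes were 2.30 ± 0.68 (SE, adjusted p = 0.053) and 2.27 ± 0.70 (SE, adjusted p = 0.063). For Col4a1 and Col4a2, the chains of the common network, the times lay closer together, and the difference between the pairs was not tested: Col4a1 was at 0.69 and 0.19 at 72 h and at 0.14 and 0.29 at 24 h, and Col4a2 at 1.17 and 0.83 at 72 h and 0.76 and 0.33 at 24 h. The times overlapped for Col4a1 and did not for Col4a2.

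With the 6 arrays left out, 8 collagens were called higher at 72 h than at 24 h in NIH3T3 cells, against 10.5% of all genes in either direction and 6.85% higher. They were Col4a5 (adjusted p = 0.0092), Col4a6 (adjusted p = 0.011), Col16a1 (adjusted p = 0.015), Col1a2 (adjusted p = 0.018), Col6a2 (adjusted p = 0.019), Col6a1 (adjusted p = 0.021), Col3a1 (adjusted p = 0.040) and Col11a1 (adjusted p = 0.045) by limma. None of the 6 arrays is in these 2 groups, so the log2 fold changes are those of the full fit, and Col16a1, a collagen attached to fibrils, had 1.36, Col6a1 1.32 and Col6a2 1.18. Set against 0 h, 0 collagens passed at 72 h with all arrays, against 5.52% of all genes. There 5 collagens had an unadjusted p under 0.05, against 3693 of 18193 genes. The largest of these differences were 2.78 for Col11a1, 2.43 for Col4a6, 2.30 for Col1a2 and 1.56 for Col3a1. At 72 h against 0 h, Col4a6, Col1a2, Col16a1, Col6a1 and Col6a2 were called higher without the 6 arrays, against 10.7% of all genes and 6.94% higher.

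Fibroblast markers moved beside these genes. From 24 to 72 h in NIH3T3 cells, Pdgfra (log2 fold change 3.16, adjusted p = 0.028) and Pdgfrb (3.22, adjusted p = 0.019) of 6 fibroblast markers were called higher by limma with all arrays, and no marker of the other lists. In that fit 4.06% of all genes were called higher. Without the 6 arrays Thy1 and the epithelial Cdh1 were called higher as well, against 6.85% of all genes. The mean of the 6 fibroblast markers was -1.02 and -1.0 at 0 h, -1.31 and -1.43 at 24 h, 0.72 and -0.76 at 48 h, and 0.80 and 0.67 at 72 h. The part of these markers in the collagen values was not tested.

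In K-ras cells at 25 mM, Col3a1 had its higher values at 48 and 72 h. Col3a1 was at -0.23 and 0.24 at 0 h, -0.52 and -0.52 at 24 h, 2.57 and 1.05 at 48 h, and 2.64 and 1.29 at 72 h. Both later times lay above both earlier ones, and the log2 fold change from 24 to 72 h was 2.48 ± 0.91 (SE, adjusted p = 0.44). Col1a2 overlapped between the times, with -1.28 and 0.43 at 72 h and -0.28 and 0.27 at 24 h. The type VI genes Col6a1 and Col6a2 had log2 fold changes of 1.36 and 1.43, and Col11a1 one of 1.32. No collagen passed, against 0% of all genes with all 28 arrays and 0.0385% without the 6. In these fits 4 and 8 of 42 had an unadjusted p under 0.05, against 1849 and 2023 of 18193 genes. Leaving out K-ras 25 mM 72 h replicate 2 gave 4 calls, which rest on replicate 1, the array that stood apart.

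The test of the difference between these courses, K-ras minus NIH3T3 in the change from 24 to 72 h, called no collagen, against 0.0055% of all genes with all arrays and 0.0879% without the 6. The largest values were -2.64 ± 0.96 for Col1a2, -2.50 ± 0.96 for Col4a5, -1.97 ± 1.97 for Col11a1 and -1.88 ± 1.00 for Col4a6 (SE, adjusted p = 0.26, 0.28, 0.66 and 0.39 by limma). An unadjusted p under 0.05 was found for 5 of 42, against 2664 of 18193 genes. With all arrays, a difference in time course between the lines was not shown for any of the 42 genes. Without K-ras 25 mM 72 h replicate 2 it gave 5 calls, which rest on replicate 1, the array with the bioC value of 2.94 that was the highest of 28 for 7 collagens.

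**Figure D3:**
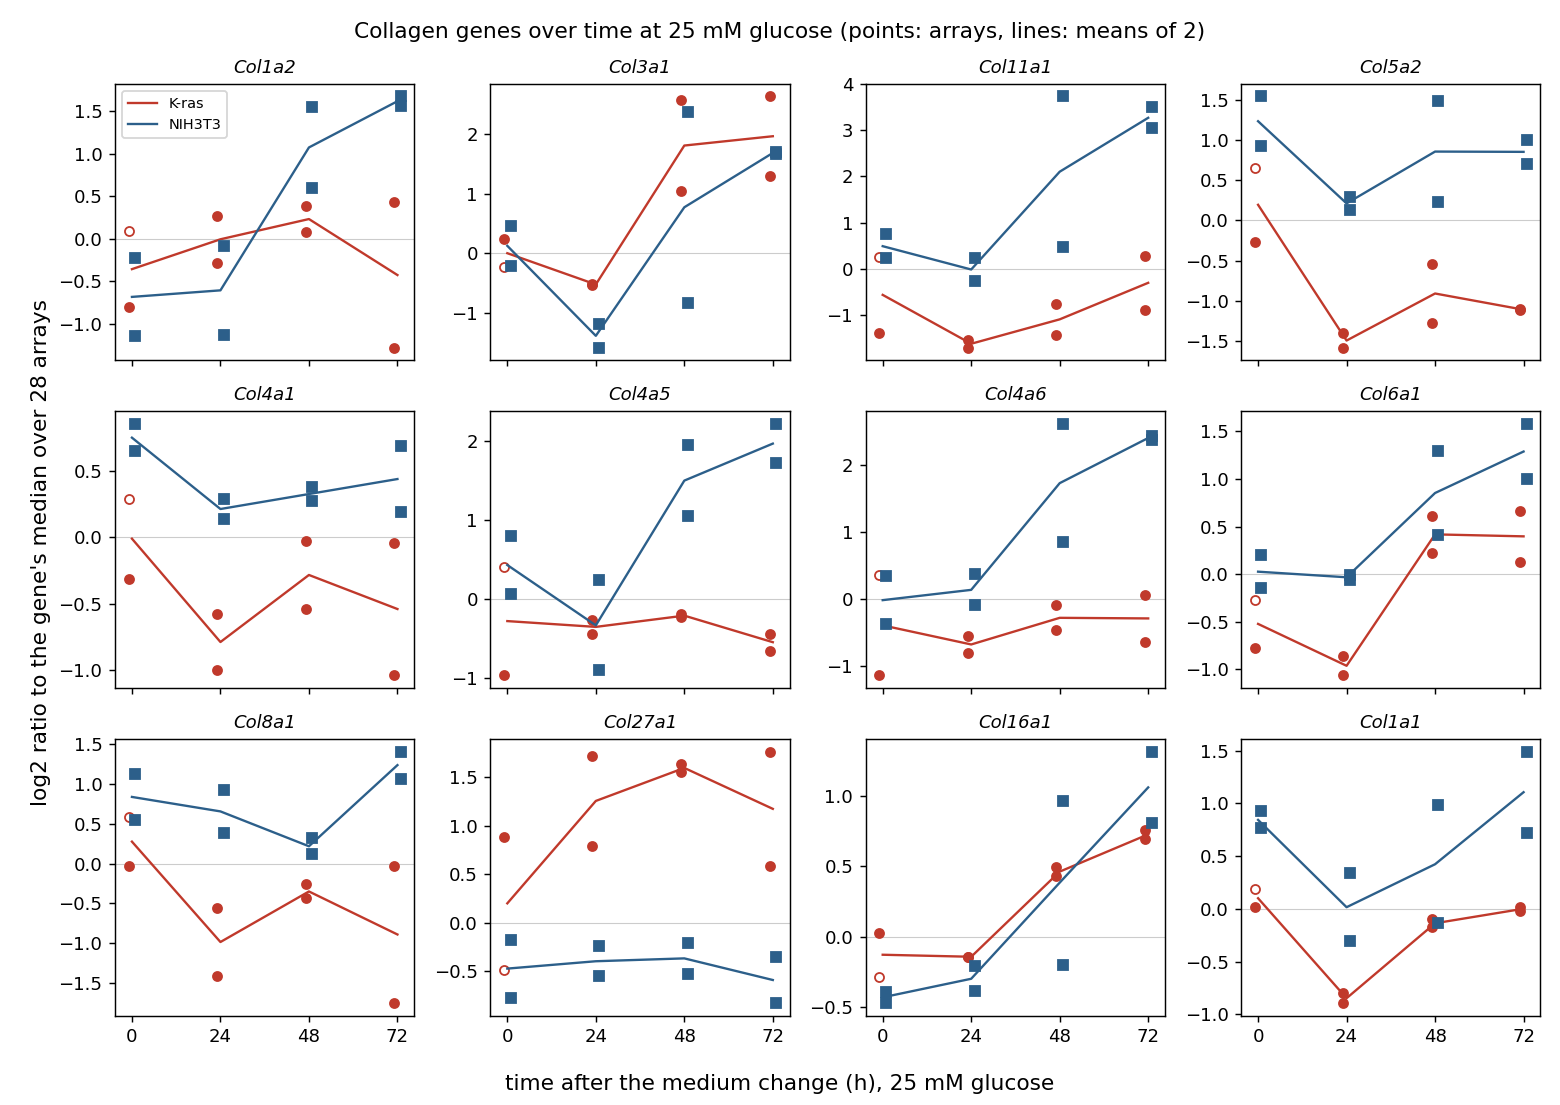
Log2 ratio to the gene's own median (y axis) against time after the medium change in hours (x axis) at 25 mM glucose for 12 collagen genes, with points for arrays, lines for means of 2, K-ras in red circles and NIH3T3 in blue squares; the open circle at 0 h is the K-ras array with the NIH3T3 profile. Col3a1 is above 1 in both lines at 72 h, while Col4a6 is at 0.06 and -0.65 in K-ras cells and above 2 in NIH3T3 cells at that time.

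Glucose gave no collagen call with all 28 arrays in any of the 4 comparisons made. In NIH3T3 cells at 72 h, where the 4 arrays carried the profile of their label, 1 mM minus 25 mM gave log2 fold changes of -1.25 for Col11a1, -1.24 for Col3a1, -0.92 for Col4a5 and -0.85 for Col1a2. None passed, against 0.011% of all genes with all arrays and 0.044% without the 6. With all arrays 1 of 42, Col9a1, had an unadjusted p under 0.05 (log2 fold change 0.73, adjusted p = 0.54 by limma), against 1224 of 18193 genes. Col11a1 shows the overlap, with 0.50 and 3.54 in 1 mM and 3.50 and 3.04 in 25 mM. In K-ras cells at 24 h the glucose levels differed less, with the largest values at -0.45 for Col1a2, -0.40 for Col11a1, -0.36 for Col12a1 and -0.35 for Col22a1. No collagen passed there, and 0% of all genes were called with or without the 6 arrays. No collagen had an unadjusted p under 0.05, against 117 of 18193 genes with all arrays.

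In K-ras cells at 72 h the collagens lay lower in 1 mM glucose on 1 array. K-ras 1 mM 72 h replicate 2 was the lowest of 28 arrays for 12 of 42 collagens, with Col1a1 at -4.00, Col6a1 at -3.66, Col6a2 at -4.06, Col5a1 at -1.98, Col6a3 at -1.83 and Col16a1 at -1.60. Col3a1 was at -1.52 there, not its lowest value. The other array of that group, with the NIH3T3 profile, had 0.34, 0.67, 0.78, -0.72, 0.37, 0.27 and 0.76 for these genes, and the 25 mM arrays had Col1a1 at 0.02 and -0.02 and Col6a2 at 0.41 and 0.15. With all arrays the largest log2 fold changes were -2.34 for Col3a1, -1.92 for Col6a2, -1.89 for Col6a1 and -1.83 for Col1a1, and Col5a1 had -1.63. None passed, against 0.181% of all genes. Of the 42, 8 had an unadjusted p under 0.05, against 2791 of 18193 genes.

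Without the 6 arrays that single K-ras array stood for the group, assumed to vary like the others, and 7 collagens were called, all lower, against 3.74% of all genes and 2.22% lower. They were Col6a2 (log2 fold change -4.34, adjusted p = 0.0001), Col6a1 (-4.06, adjusted p = 0.0002), Col1a1 (-4.00, adjusted p = 0.0004), Col6a3 (-2.21, adjusted p = 0.0014), Col16a1 (-2.33, adjusted p = 0.0044), Col5a1 (-2.27, adjusted p = 0.0082) and Col4a2 (-1.24, adjusted p = 0.044) by limma. Col1a2 did not share the low values: it was at -0.43 on that array, 3.57 above Col1a1, and its log2 fold change was -0.01. Leaving out K-ras 1 mM 72 h replicate 1 alone gave 5 calls, and leaving out K-ras 25 mM 72 h replicate 2 gave 3. Of 6 fibroblast markers, Thy1 (-2.71) and S100a4 (-1.51) were called lower in this comparison without the 6 arrays, and the mean of the 6 was -1.18 on the low array against 1.13 and 0.59 on the 25 mM arrays. Their part in the result was not tested. The same genes were low on NIH3T3 1 mM 24 h replicate 1, an array with the K-ras profile, with Col1a1 at -3.18, Col6a1 and Col6a2 at -3.12, Col6a3 at -1.74 and Col16a1 at -1.31. Its own partner, also of the K-ras profile, had Col1a1 at -0.15, Col6a1 at -0.88 and Col6a2 at -0.99.

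Over both lines and 3 times, 1 mM minus 25 mM gave no call with all arrays, against 0% of all genes. An unadjusted p under 0.05 was found for 5 of 42, against 917 of 18193 genes. The largest values were log2 fold changes of -0.93 for Col3a1, -0.93 for Col11a1, -0.85 for Col6a2 and -0.84 for Col6a1. With the 6 arrays left out NIH3T3 at 24 h has no 1 mM array, so the mean is over the other 5 pairs of groups. In that mean Col6a1 (-0.95, adjusted p = 0.034) and Col6a2 (-1.03, adjusted p = 0.013) were called lower by limma, against 0.357% of all genes and 0.269% lower, and this mean includes K-ras 1 mM 72 h replicate 2.

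**Figure D4:**
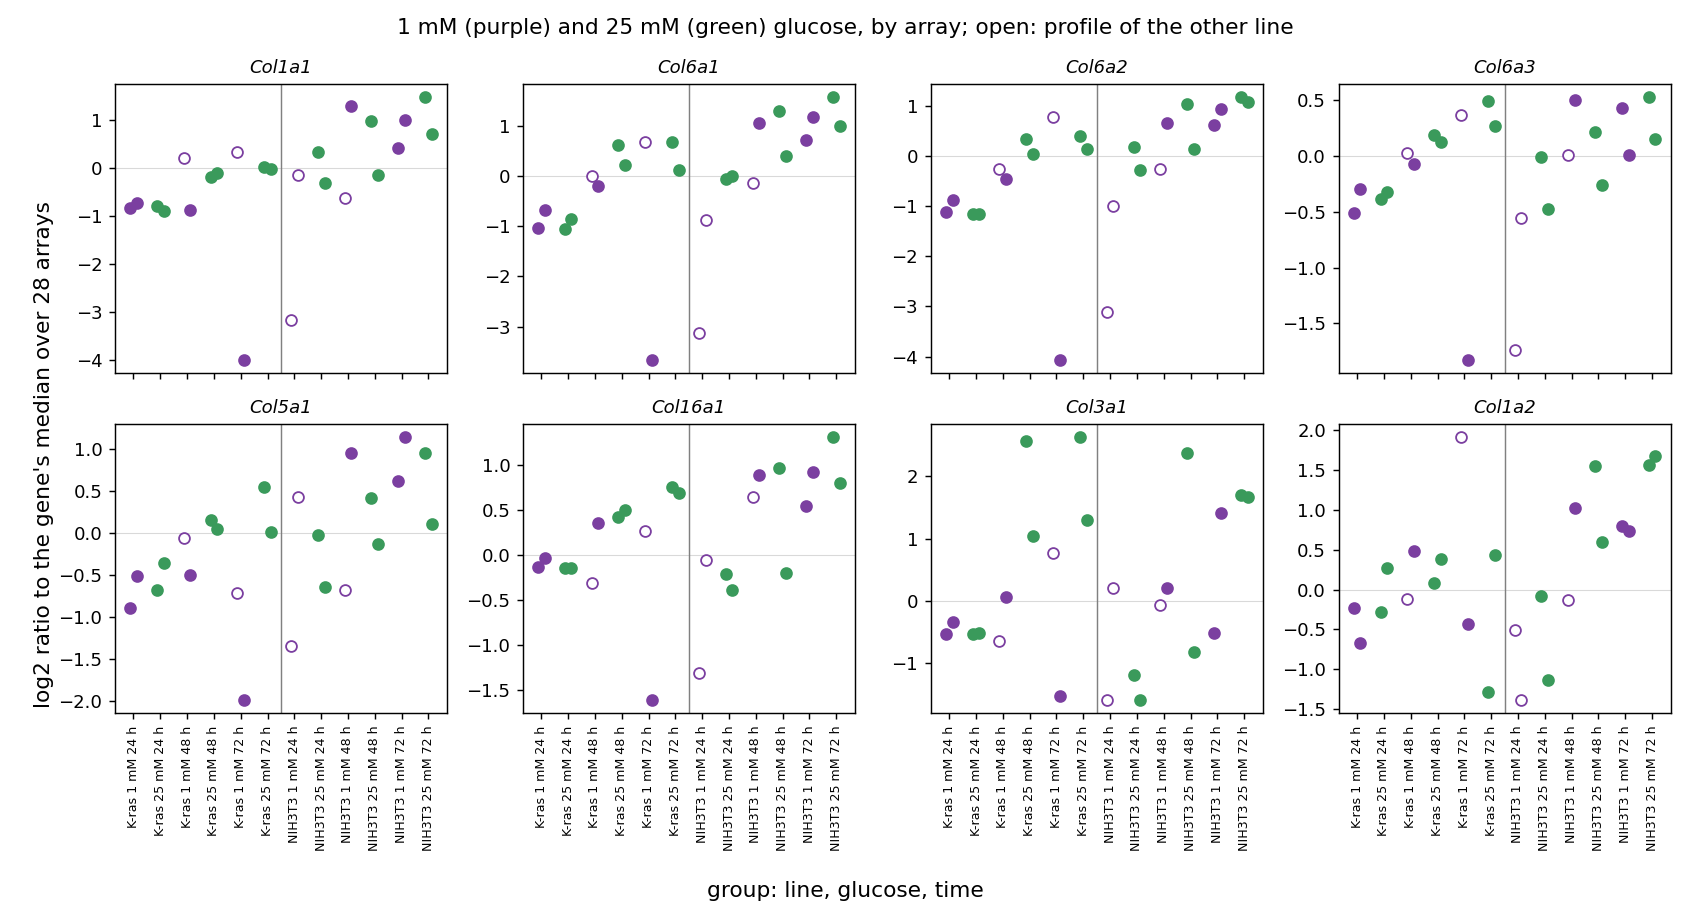
Log2 ratio to the gene's own median (y axis) for 8 collagen genes on the 24 arrays from 24 to 72 h (x axis, by line, glucose and time), with 1 mM in purple and 25 mM in green; open points have the profile of the other line. Single arrays at 1 mM lie far below the rest for Col1a1 (-4.00 and -3.18), Col6a1 and Col6a2, and the remaining arrays of the 2 glucose levels overlap.

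Genes that lie next to each other, or encode chains of 1 trimer, were set side by side on each array. Col6a1 and Col6a2, neighbours on chromosome 10 with ranges of 5.24 each, differed by a median of 0.217 and by at most 0.402. Col4a5 and Col4a6 differed by a median of 0.233 and by up to 1.27, and Col4a1 and Col4a2 by a median of 0.310 and by up to 1.00. Col1a1 on chromosome 11 and Col1a2 on chromosome 6, whose products form type I collagen together, differed by a median of 0.581 and by up to 3.57, on K-ras 1 mM 72 h replicate 2. Col3a1 and Col5a2 are neighbours on chromosome 1 with 24625 bases between the genes, and differed by a median of 0.974 and by up to 3.76. These gaps are differences of ratios to each gene's own median, over 28 arrays that share line and time, and they carry no test. As annotated on GRCm38.p6, Col6a1 is at chr10:76708792-76726044 and Col6a2 at chr10:76595756-76623630.

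Genes that make, export, crosslink or bind collagen were listed beside the chains, and 37 of the 42 listed were measured. At 25 mM over 4 times, 2 were called higher in K-ras cells and 4 lower, against 5.67% of all genes in each direction, with a list median of -0.08 against -0.0385 for all genes. Serpinh1, the collagen chaperone of the endoplasmic reticulum, was at 0.26 and -0.12 at 0 h, -0.72 and -0.68 at 24 h, -0.17 and -0.39 at 48 h, and -0.13 and -0.40 at 72 h in K-ras cells. In NIH3T3 cells it was at 0.68 and 0.82, 0.65 and 0.31, 0.35 and 0.50, and 0.42 and 0.40. All K-ras values lay below all NIH3T3 values, which held for 0.231% of all genes. The log2 fold change was -0.81 ± 0.15 (SE, adjusted p = 0.0049).

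The crosslinking enzymes went both ways. Loxl4 had a log2 fold change of -1.44 ± 0.40 (SE, adjusted p = 0.028) and Loxl1 one of 1.01 ± 0.26 (SE, adjusted p = 0.018), and both are relatives of lysyl oxidase. Loxl4 was at 0.79 on the K-ras 0 h array with the NIH3T3 profile, between -1.62 and -0.49 on the other 7 K-ras arrays, and between 0.36 and 0.93 on the NIH3T3 arrays. Crtap, a partner of prolyl 3-hydroxylase, had a log2 fold change of -0.99 (adjusted p = 0.035) and Ddr1, a receptor kinase for collagen, -0.95 (adjusted p = 0.026). Sec23a, a coat protein of the vesicles that export procollagen, had 0.49 (adjusted p = 0.043). Leaving out the 6 arrays gave 7 higher and 10 lower, against 8.62% and 9.23% of all genes, among them Plod1, a lysyl hydroxylase, at -1.03 and Colgalt1, which puts galactose on collagen, at -0.99.

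In NIH3T3 cells at 25 mM, Sec23a and Mrc2 were higher at 72 h than at 24 h. Sec23a was at 0.42 and 0.08 at 72 h and at -1.14 and -0.83 at 24 h, with a log2 fold change of 1.24 ± 0.30 (SE, adjusted p = 0.024). Mrc2, a receptor that takes up collagen, was at 1.54 and 1.28 at 72 h and at 0.13 and -1.12 at 24 h, with 1.90 ± 0.54 (SE, adjusted p = 0.048). Of all genes, 6.15% were called there. Without the 6 arrays 6 of 37 were called higher, against 6.85% of all genes, with Pcolce, which aids the removal of the procollagen end, at 1.81 and Lox, the lysyl oxidase that crosslinks fibrils, at 1.36. In the other 10 comparisons 0 of 37 passed with all arrays. Without the 6, K-ras minus NIH3T3 at 72 h gave 1 higher and 7 lower at 25 mM, against 3.46% and 5.43% of all genes, and 1 higher and 12 lower at 1 mM, against 8.09% of all genes in either direction. NIH3T3 at 72 h against 0 h gave 6 higher and 1 lower, against 10.7% in either direction. The K-ras glucose comparison at 72 h gave 6 lower, against 2.22% of all genes, with Pcolce at -3.59, Loxl3 at -2.72 and Lox at -2.50, and it rests on the same single array as the collagens. Glucose over both lines gave 1 lower, Pcolce, against 0.269% of all genes, and the other 5 comparisons gave none.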

How the data were processed

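Per the labels' protocols, RNA came from Trizol extraction and an RNeasy clean-up, with one-cycle biotin labelling. RMA is named per the submitters' processing notes, while neither its version nor any later step is given in the sources used here. The authors' deposited table holds log2 values for 45101 probe sets on 28 arrays. On the linear scale the median over arrays was 1 for 45101 of 45101 probe sets (tolerance 0.001), so the values are ratios to that median. Array medians lay between -0.031 and 0.044.

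Symbols came from the platform annotation: 34945 probe sets had 1 symbol, 932 several, 9160 none, and 64 were controls. Only the first were used, 1 per gene by the largest SD, which left 18193 genes. limma 3.58.1 in R 4.3.3 (lmFit, eBayes) was fitted with 1 coefficient per group on all 28 arrays, leaving 14 residual degrees of freedom, for 12 comparisons. p-values were adjusted by Benjamini-Hochberg over 18193 genes, and the fit was tested on simulated data. Errors are standard errors from limma.

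The collagen members, classes, gene lists, comparisons and tests were chosen with earlier results of these data known. Every called collagen was named, with the 4 largest uncalled log2 fold changes per comparison and 10 genes fixed by name; the called genes of the fit without 6 arrays, the type IV promoters and genes quoted as examples of small or uneven values were chosen after values were seen. With 2 arrays per group the number of arrays limits precision, and signal over background is unknown. Alternatives were the fit without the 6 arrays, with the compared arrays only, quantile normalisation, the bioC split as a term, a replicate block, the mean of all probe sets, a filter on SD and leaving out each array.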

Additional observations from a re-analysis of the deposited data

How the results depend on the processing

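The line count at 25 mM over 4 times, 7 with all arrays, stayed within 1.5 times of 7 under quantile normalisation, the replicate block, the mean of probe sets and the SD filter. Without the 6 arrays with the profile of the other line, the counts of collagens called became 12 for the line over 4 times, 9 for the line at 25 mM and 72 h, 10 for the line at 1 mM and 72 h, 8 and 5 for NIH3T3 at 72 h against 24 h and 0 h, 7 for K-ras glucose at 72 h and 2 for glucose over both lines; the other 5 kept a count of 0. With the bioC split as a term the counts were 0 for the line over 4 times and 1 each for NIH3T3 at 72 h against 24 h and 0 h. In that fit Col11a1 and Col4a5 reversed to 0.84 and 0.16, and the other 5 called genes kept their sign and missed the threshold. The split coincides with the line at 25 mM. Its term was estimated only within NIH3T3 1 mM at 48 h and 72 h. There the 48 h group holds 1 array with the K-ras profile, so this fit cannot adjust for bioC. With the mean of all probe sets 1 collagen was called at 25 mM and 72 h between the lines and 1 in NIH3T3 at 72 h against 24 h. With genes of low SD left out the counts were 3, 5 and 2 for the line at 25 mM and 72 h and for NIH3T3 at 72 h against 24 h and 0 h. With the compared arrays only they were 4, 10 and 10, and 12 for the line over 4 times. The causes were not tested. Apart from the fit without the 6 arrays, the share of all genes called is not given beside these counts. Such counts thus do not tell a change in the collagens from a change in all genes. Quantile normalisation moved none of the 12 counts beyond that range.

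Leaving out 1 array at a time gave 5 to 8 calls for the line over 4 times, 0 to 8 for the line at 25 mM and 72 h, 0 to 7 for the line at 1 mM and 72 h, 0 to 1 for NIH3T3 at 72 h against 24 h, 0 to 4 for K-ras at 72 h against 24 h, 0 to 5 for the difference between the time courses and 0 to 5 for K-ras glucose at 72 h, and 0 for the other 5 comparisons. Where it left a group with 1 array, that array was assumed to vary like the other groups. For counts with 1 array left out, here and above, the share of all genes is not given either. The 1 call in NIH3T3 at 72 h against 24 h came without NIH3T3 25 mM 24 h replicate 1.

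Over 91 pairs of groups, the correlation of same-numbered arrays' deviations from their group means ran from -0.683 to 0.689, with a median of -0.0373. Of these, 23 were over 0.1. In several groups 1 array has the profile of the other line, so the line difference enters these correlations. They cannot settle whether replicate numbers pair the samples. With replicate number as a block in the fit, 7 collagens were called for the line over 4 times and 0 in the other 11 comparisons.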
